A study of Mus musculus with 6 samples.

Results

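The genes described here carry the Nodal and activin signal in mouse embryonic stem cells, together with Gsc, a homeobox gene that activin switches on and that has been reported as a target of TFII-I. They were taken as every probe set whose only listed gene symbol was Nodal, Lefty1, Lefty2, Tdgf1, Acvr1b, Acvr2a, Acvr2b, Smad2, Smad7 or Gsc, which gave 17 of the 45037 probe sets tested and covered all 10 genes. Total RNA had been hybridised to 6 Affymetrix mouse genome arrays, which read each transcript by 1 or more probe sets. The cells were 3 clones, named A1, B3 and C6, of the embryonic stem cell line EB3, each with the coding sequence of human GTF2I, which encodes TFII-I, inserted at the Rosa26 locus behind a promoter that tetracycline represses. All arrays carried this FLAG-tagged transgene and all cultures were grown on gelatin with serum and LIF. The uninduced arrays were from cells kept in tetracycline (0 h without it) and the induced arrays from cells 24 h after its removal, with 1 array per clone in each state. Tetracycline removal was itself the induction, so its own effect and that of the transgene cannot be told apart. Each clone gave a single array per state. In tests of the state without a term for the clone, p-values measure the spread between these clones. With such a term, they measure the spread left once clone levels are removed.

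Nodal is a secreted ligand of the TGF-beta family that patterns the early embryo. It binds a receptor complex of Acvr1b with Acvr2a or Acvr2b and needs the coreceptor Tdgf1 (Cripto), and the activins use the same receptors without Tdgf1. The receptors phosphorylate Smad2, which enters the nucleus and acts with partners such as Foxh1. Lefty1 and Lefty2 are secreted antagonists that the signal itself switches on, Smad7 is an intracellular inhibitor also induced by it, and Gsc marks the organizer region of the gastrula.

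The labels of the samples disagree on the transgene: titles and series name give GTF2I, which was followed, while a characteristics field names GTF2IRD2. The paper's methods list A1, B3 and C6 as GTF2I clones and give other clone names for GTF2IRD2. Mouse Gtf2i, at its brightest probe set, differed by 0.01 ± 0.19 (SE, n = 3 per group) on the log2 scale. No probe set was matched to the human transgene, so induction was not checked on these arrays. The paper reports real-time RT-PCR in which the transgene transcript rose after tetracycline removal in each of these clones, A1 included. The array medians lay between 5.06 and 5.11. All 7 stem cell markers had a mean of at least 6 and averaged 12.36 to 12.60 per array. The 6 fibroblast or feeder cell markers averaged 4.45 to 4.57, though Thy1 among them read 6.27 to 7.40. The 6 primitive endoderm markers averaged 4.65 to 5.00, and 3 measured primitive streak and mesendoderm markers 4.88 to 5.10. The 4 primed epiblast markers averaged 6.97 to 7.79, from Fgf5 at 3.97 to 4.27 up to Dnmt3b at 10.90 to 11.74. Arrays of clone A1 stand apart from the others in direction: across all probe sets, 41.4% moved in A1 against both B3 and C6 between the 2 states, and 60.3% did so among those with a mean of at least 6. Whether the labels of the 2 A1 arrays are exchanged cannot be settled from these files. The labels were followed, and every mean over the 3 clones, every test of A1 against the other clones and the direction of A1 depend on them. State differences without A1 are also given for each of the 10 genes and for the other pathway genes called in the test of A1. Not every other result has a counterpart without A1.

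Promoter windows from RefSeq (build GRCm38.p6; 250 bases before to 50 after a transcript start) were available for 6 of the 10 genes, Nodal, Tdgf1, Acvr1b, Acvr2a, Acvr2b and Gsc, and 3 are shown. Acvr2b (its start lies inside the annotated span of the gene) held the largest difference between clones in the change on induction, Gsc is the reported TFII-I target, and Tdgf1 was the only one of the 6 with a Foxh1 motif. Capitals mark the Smad box (CAGAC on either strand), the Foxh1 motif (TGTNNATT on either strand, N being any base) and the E-box CACGTG, which do not overlap one another in these windows.

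Acvr2b, + strand, chr9:119401928-119402227: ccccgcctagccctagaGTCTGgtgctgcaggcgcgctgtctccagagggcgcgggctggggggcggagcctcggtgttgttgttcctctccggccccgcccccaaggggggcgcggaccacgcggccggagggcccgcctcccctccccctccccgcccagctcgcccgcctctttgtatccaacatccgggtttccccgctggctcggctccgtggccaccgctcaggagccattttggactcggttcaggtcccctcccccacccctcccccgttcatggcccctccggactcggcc

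Gsc, - strand, chr12:104473187-104473486: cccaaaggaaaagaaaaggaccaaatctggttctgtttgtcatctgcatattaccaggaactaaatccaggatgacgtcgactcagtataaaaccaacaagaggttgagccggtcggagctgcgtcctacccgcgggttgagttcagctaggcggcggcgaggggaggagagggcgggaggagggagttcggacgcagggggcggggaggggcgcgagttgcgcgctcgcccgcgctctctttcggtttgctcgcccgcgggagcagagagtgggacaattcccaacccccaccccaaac

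Tdgf1, - strand, chr9:110946109-110946408: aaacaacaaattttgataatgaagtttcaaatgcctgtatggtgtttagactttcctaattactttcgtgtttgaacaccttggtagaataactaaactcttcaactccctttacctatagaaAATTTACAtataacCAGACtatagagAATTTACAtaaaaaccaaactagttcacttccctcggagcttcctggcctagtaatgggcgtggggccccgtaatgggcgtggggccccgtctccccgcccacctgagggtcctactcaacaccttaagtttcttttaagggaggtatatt

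The Acvr2b window held 1 Smad box, that of Gsc none of the 3 motifs, and that of Tdgf1 1 Smad box between 2 Foxh1 motifs. Among all 32851 windows of this length 49.6% held a Smad box, 12.2% a Foxh1 motif and 7.15% an E-box. Of the other 3 windows, that of Acvr2a held 1 Smad box, that of Acvr1b 1 E-box and that of Nodal none. The windows also differed in base composition, with a GC content of 73.3% for Acvr2b, 60.3% for Gsc and 41.7% for Tdgf1. These matches describe the letters of the windows and were not tested as binding sites.

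The question of the design is whether genes respond when TFII-I is raised. None of the 17 probe sets passed limma's test of induced against uninduced arrays after Benjamini-Hochberg adjustment over all probe sets, and 0% of all 45037 did so. An unadjusted p under 0.05 was reached by 0 of the 17 and by 436 of the 45037. Blocking on the clone (replicate block) also gave 0 calls among the 17, and 0 at an unadjusted p under 0.05. By their means 8 probe sets were higher and 9 lower in induced arrays, by -0.25 to 0.23, with a median of -0.00 that matched the median of 0.00 over all probe sets. Their 95% intervals reached 0.22 either side of the estimate at the narrowest, for Acvr2a (1451004_at), and 1.05 at the widest, for Lefty1. In these bulk samples fewer cells of a type and less RNA per cell cannot be told apart.

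**Figure D1:**
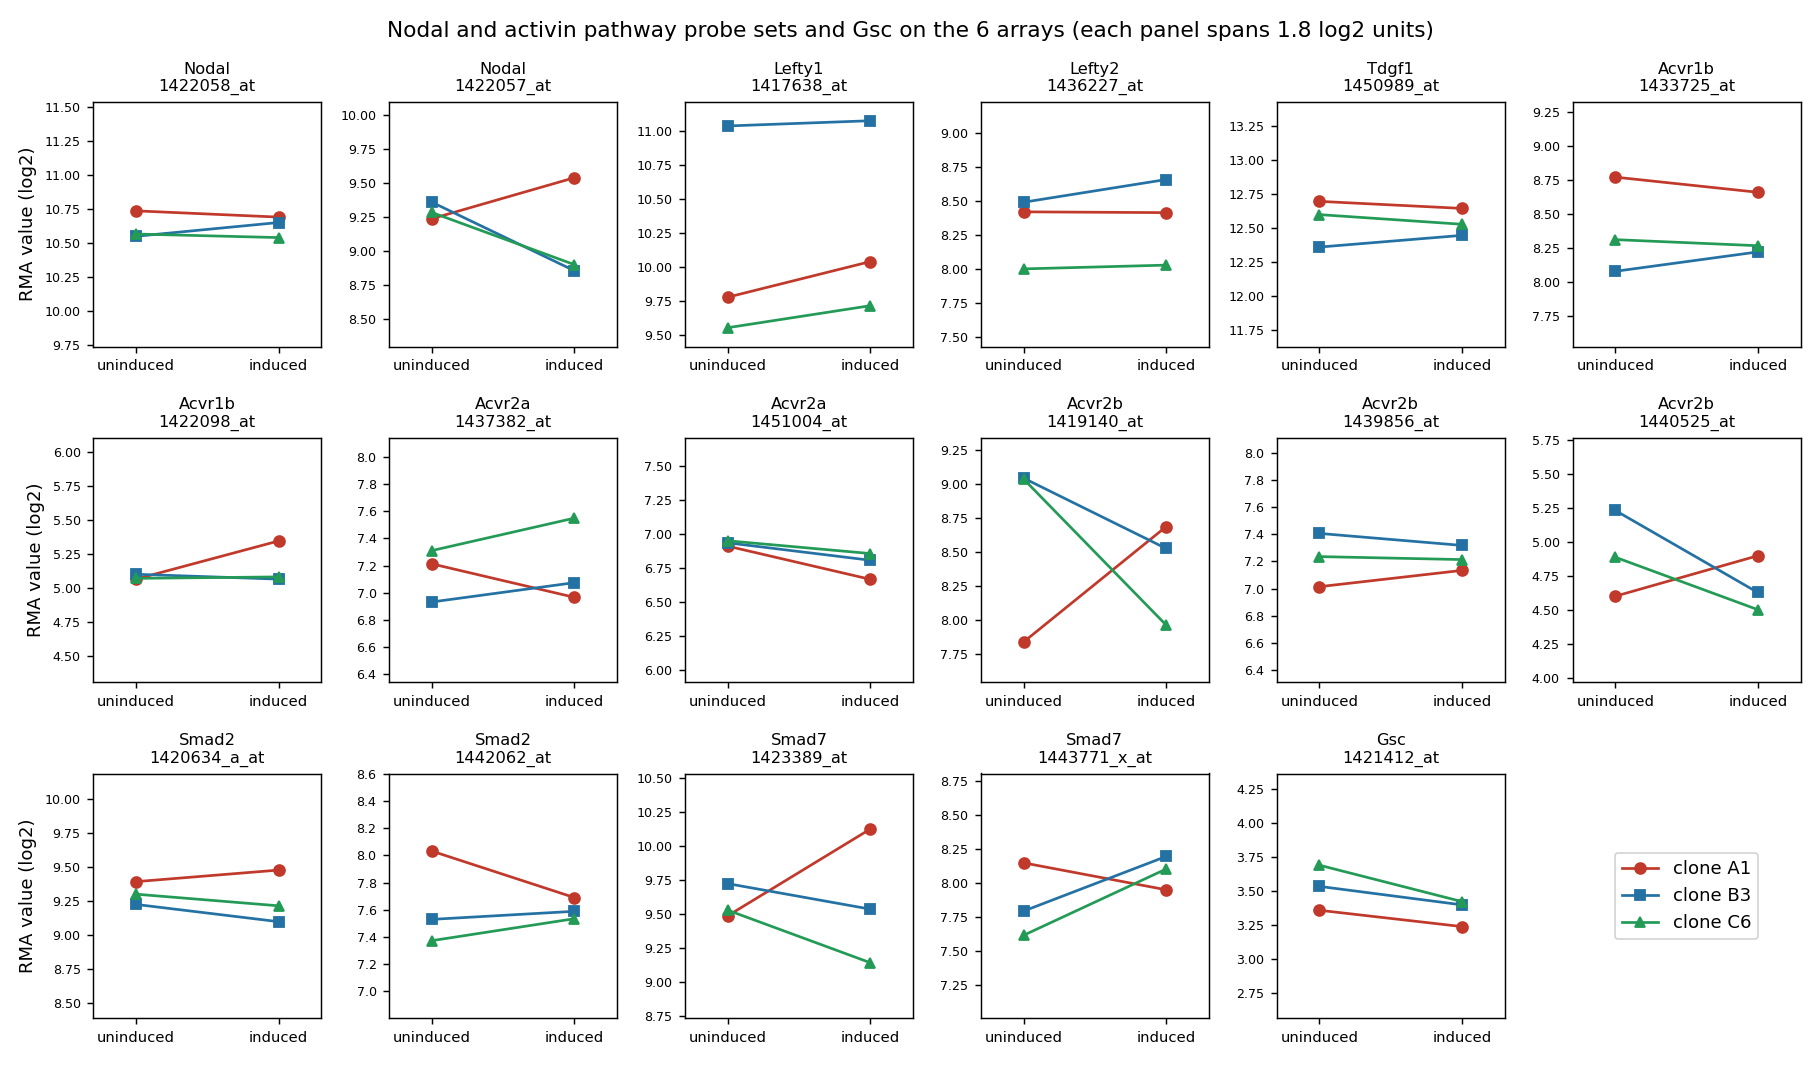
RMA value (log2) of the 17 probe sets; points are arrays, lines join the uninduced to the induced array of a clone, and every panel spans the same 1.8 log2 units. Acvr2b (1419140_at) crosses over, rising from 7.84 to 8.69 in A1 and going from 9.04 to 8.53 in B3 and from 9.04 to 7.96 in C6, while Lefty1 of B3 stays near 11 in both states.

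The ligand gene Nodal was read by 2 probe sets that did not behave alike. At 1422058_at the uninduced arrays of A1, B3 and C6 stood at 10.74, 10.55 and 10.57 and the induced arrays at 10.69, 10.65 and 10.54. These 6 values lay within 0.20 of one another, the narrowest range of the 17 probe sets, and the groups differed by 0.01 ± 0.10 (SE, n = 3 per group). At 1422057_at the values were 9.24, 9.36 and 9.29 uninduced and 9.54, 8.86 and 8.90 induced. Here the uninduced arrays lay close together, whereas the induced array of A1 was above them and those of B3 and C6 below. The group difference was -0.20 ± 0.18, with A1 at 0.30, B3 at -0.50 and C6 at -0.38. Both probe sets are listed under the same transcript accession, and which part of the transcript each reads was not analysed here.

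Lefty1 set the clones apart more than any other of the 10 genes. Its values in A1, B3 and C6 were 9.78, 11.04 and 9.56 in uninduced arrays and 10.04, 11.08 and 9.72 in induced ones. Both arrays of B3 were above all 4 arrays of the other clones, and B3 averaged 1.28 log2 units above the mean of A1 and C6, or 2.44-fold. The level differed between the clones in limma's F test with the state as a covariate (adjusted p = 0.0128), the only one of the 17 probe sets to pass, against 1.13% of all probe sets. The F test takes the 2 arrays of a clone as its replicates, and these differed by at most 0.26. Between states Lefty1 was higher in the induced array of all 3 clones, by 0.26, 0.04 and 0.16 in A1, B3 and C6. The mean difference of 0.15 had a standard error of 0.45 in the unblocked fit and 0.096 once clones formed a replicate block, and the blocked 95% interval of -0.08 to 0.38 includes 0.

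The other antagonist gene, Lefty2, lies 35914 bases from Lefty1 on chromosome 1 (GRCm38.p6). It stood at 8.42, 8.49 and 8.00 in the uninduced and 8.41, 8.66 and 8.03 in the induced arrays of A1, B3 and C6. B3 was again the highest clone and C6 the lowest in both states, though by less than for Lefty1, with B3 1.28-fold above the mean of the others. The F test between clones did not pass (adjusted p = 0.146, unadjusted p = 0.00564). The induction difference was 0.06 ± 0.19 (SE, n = 3 per group). The 2 Lefty genes are close relatives, and whether either probe set also reads the other gene was not tested.

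**Figure D2:**
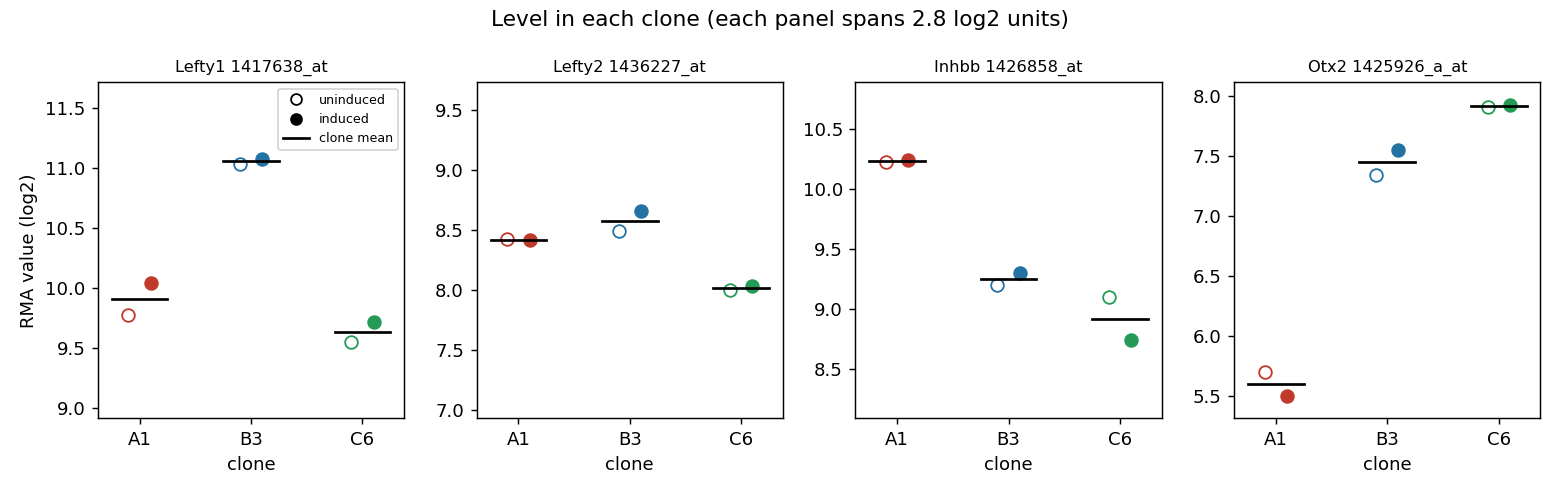
RMA value (log2) of Lefty1, Lefty2, Inhbb and Otx2 by clone, with an open point for the uninduced and a filled point for the induced array and a bar at the clone mean; every panel spans 2.8 log2 units. Lefty1 averages 11.06 in B3 against 9.91 in A1 and 9.64 in C6, Inhbb is highest in A1 and Otx2 lowest in A1.

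Of 57 other pathway genes measured, a pair also differed in level between the clones in the F test, which 1.13% of all probe sets passed. Neither followed Lefty1. Inhbb, which encodes the beta B subunit of activins and inhibins, stood at 10.23, 9.20 and 9.10 in uninduced and 10.24, 9.30 and 8.74 in induced arrays of A1, B3 and C6 (F test, adjusted p = 0.0273). A1 was the highest clone in both states. Otx2, a homeobox gene of the anterior epiblast, stood at 5.70, 7.35 and 7.91 uninduced and 5.50, 7.55 and 7.93 induced (adjusted p = 0.00405). A1 was the lowest clone, 2.31 log2 units under C6. Without A1, the clone means of B3 and C6 were 9.25 and 8.92 for Inhbb and 7.45 and 7.92 for Otx2, which were not tested on their own. These levels did not track the state, with induction differences of -0.08 for Inhbb and 0.01 for Otx2.

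Tdgf1, the coreceptor, varied little. Its single probe set ranged from 12.36 to 12.70 over the 6 arrays, and the groups differed by -0.01 ± 0.12 (SE, n = 3 per group). A1 was the highest clone in both states and B3 the lowest, by clone means of 12.67 and 12.40, which did not pass the F test (adjusted p = 0.504).

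The receptor genes split between steady and variable probe sets. Acvr1b, the type I receptor also known as ALK4, ranged from 8.08 to 8.77 at its brighter probe set (1433725_at), with an induction difference of -0.00 ± 0.20 (SE, n = 3 per group). A1 was highest in both states, and the F test between clones gave an unadjusted p of 0.00653 (adjusted p = 0.155). Its dimmer probe set (1422098_at) stood at 5.06 to 5.10 on 5 arrays and at 5.35 on the induced array of A1.

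Acvr2a, a type II receptor, had the only probe set of the 17 on which the states did not overlap. At 1451004_at the values of A1, B3 and C6 were 6.91, 6.93 and 6.95 uninduced and 6.66, 6.80 and 6.85 induced. All 3 induced arrays lay below all 3 uninduced ones, with 2.26% of all probe sets apart in this direction and 2.29% apart with induced arrays higher. The difference of -0.16 ± 0.09 (SE, n = 3 per group; 95% interval -0.37 to 0.06) did not pass (limma, unadjusted p = 0.14, adjusted p = 1). At the other probe set (1437382_at) the induced array was lower in A1, by -0.25, and higher in B3 and C6, by 0.14 and 0.24, so the pair of probe sets gave no common direction.

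Acvr2b, the other type II receptor, showed the widest movement between states of the 17 probe sets. At 1419140_at the uninduced arrays of A1, B3 and C6 read 7.84, 9.04 and 9.04 and the induced arrays 8.69, 8.53 and 7.96. The uninduced array of A1 lay beside the induced array of C6, and the remaining induced arrays lay between. The clone differences of 0.85, -0.52 and -1.07 (A1, B3, C6) averaged to -0.25 ± 0.34 (SE, n = 3 per group), and without the arrays of C6 the mean turned to 0.17. A dimmer probe set (1440525_at) moved likewise, by 0.30, -0.60 and -0.39 in A1, B3 and C6, from 4.60, 5.23 and 4.89 to 4.90, 4.63 and 4.50. At 1439856_at the differences were small, 0.12, -0.09 and -0.02 for A1, B3 and C6, with the same signs.

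Smad2, which carries the signal to the nucleus, ranged from 9.10 to 9.47 at its brighter probe set (1420634_a_at). The groups differed there by -0.04 ± 0.12 (SE, n = 3 per group). At 1442062_at the uninduced array of A1, at 8.03, was above the other 5 arrays, which lay between 7.37 and 7.69. The group difference was -0.04 ± 0.17.

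Smad7, the inhibitory Smad, gave opposite patterns at its 2 probe sets. At 1423389_at the uninduced arrays of A1, B3 and C6 read 9.49, 9.72 and 9.53 and the induced arrays 10.12, 9.54 and 9.14. The induced array of A1 was the highest of all 6 and that of C6 the lowest, and the group difference was 0.02 ± 0.23 (SE, n = 3 per group). At 1443771_x_at the values were 8.15, 7.79 and 7.61 uninduced and 7.95, 8.19 and 8.10 induced. There A1 was lower after induction and B3 and C6 were higher, with a group difference of 0.23 ± 0.15. The maker's suffix _x_at marks a probe set in which some probes can match other transcripts, and no transcript accession was listed for it.

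Gsc was the dimmest of the 17 probe sets. Its values in A1, B3 and C6 were 3.36, 3.54 and 3.69 uninduced and 3.24, 3.40 and 3.42 induced. It lay below the lower quartile of its array (3.66 to 3.73 across arrays) on 5 of the 6 arrays. The induced array was lower in each clone, by -0.12, -0.14 and -0.27, but the groups overlapped, and the difference of -0.17 ± 0.12 (SE, n = 3 per group; 95% interval -0.44 to 0.10) did not pass (limma, unadjusted p = 0.175, adjusted p = 1). The clones kept their order, with C6 highest and A1 lowest in each state. Robust multiarray averaging gives no detection call, so whether Gsc was expressed at all was not settled by these values.

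Counted over the clones, 10 of the 17 probe sets moved in A1 against both other clones (41.4% of all probe sets), 4 in B3 and 0 in C6, while 3 moved the same way in all 3 clones (18.8% of all probe sets). Those 3 were Lefty1 upward and Gsc and Acvr2a (1451004_at) downward. With a mean of 6 or more there were 14, of which 9 moved in A1 against the others, a share near the 60.3% of all probe sets at that level, and 2 had 1 direction throughout, against 11.9%.

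Whether A1 differed from B3 and C6 in its response was tested in limma on 1 value per clone, induced minus uninduced. This sets 1 difference against 2, with A1 taken to vary like the pair. A1 was singled out with its direction already known, and on simulated data this kind of test made more false calls than its threshold allows, so the calls are descriptions of these arrays. Of the 17 probe sets 2 passed, both higher in A1, against 2.71% of all probe sets passing and 1.71% passing as higher in A1. At an unadjusted p under 0.05 there were 7 of the 17, against 17.1% of all probe sets. These shares are not a like background, since 14 of the 17 had a mean of at least 6. Movement in A1 against both other clones was more common at that level (60.3%, against 41.4% of all probe sets). Calls under that filter are given in the last section.

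The probe sets that passed were Acvr2b (1419140_at), with a difference in A1 above the mean of B3 and C6 by 1.64 ± 0.24 (SE; adjusted p = 0.0131), and Smad7 (1423389_at), above by 0.92 ± 0.19 (adjusted p = 0.0408). Acvr2b passed under all 6 alternative settings (adjusted p from 0.000334 to 0.0285). Smad7 passed under 5 of 6 (0.00242 to 0.0503) and was lost when probe sets with a mean under 4 were left out. The other Smad7 probe set went the other way, by -0.64 (95% interval -1.06 to -0.23, adjusted p = 0.107), so the transcript level of Smad7 has no settled direction in A1. Nodal (1422057_at) at 0.75 (adjusted p = 0.0729) and Acvr2b (1440525_at) at 0.79 (adjusted p = 0.068) did not pass. Lower in A1 were Smad2 (1442062_at) at -0.45 (adjusted p = 0.253) and Acvr2a (1437382_at) at -0.44 (adjusted p = 0.27), which did not pass either. For Lefty1, Lefty2, Tdgf1, the brighter probe sets of Nodal and Acvr1b, and Gsc the estimates lay between -0.16 and 0.16, with 95% intervals that reached from -0.59 at the lowest to 0.58 at the highest, so moderate differences between clones remain possible. The same test for B3 and for C6 called 0 of the 17 (0 at an unadjusted p under 0.05 in each) and 0 of all probe sets (432 and 1076 at an unadjusted p under 0.05), with A1 among the clones they were compared with.

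**Figure D3:**
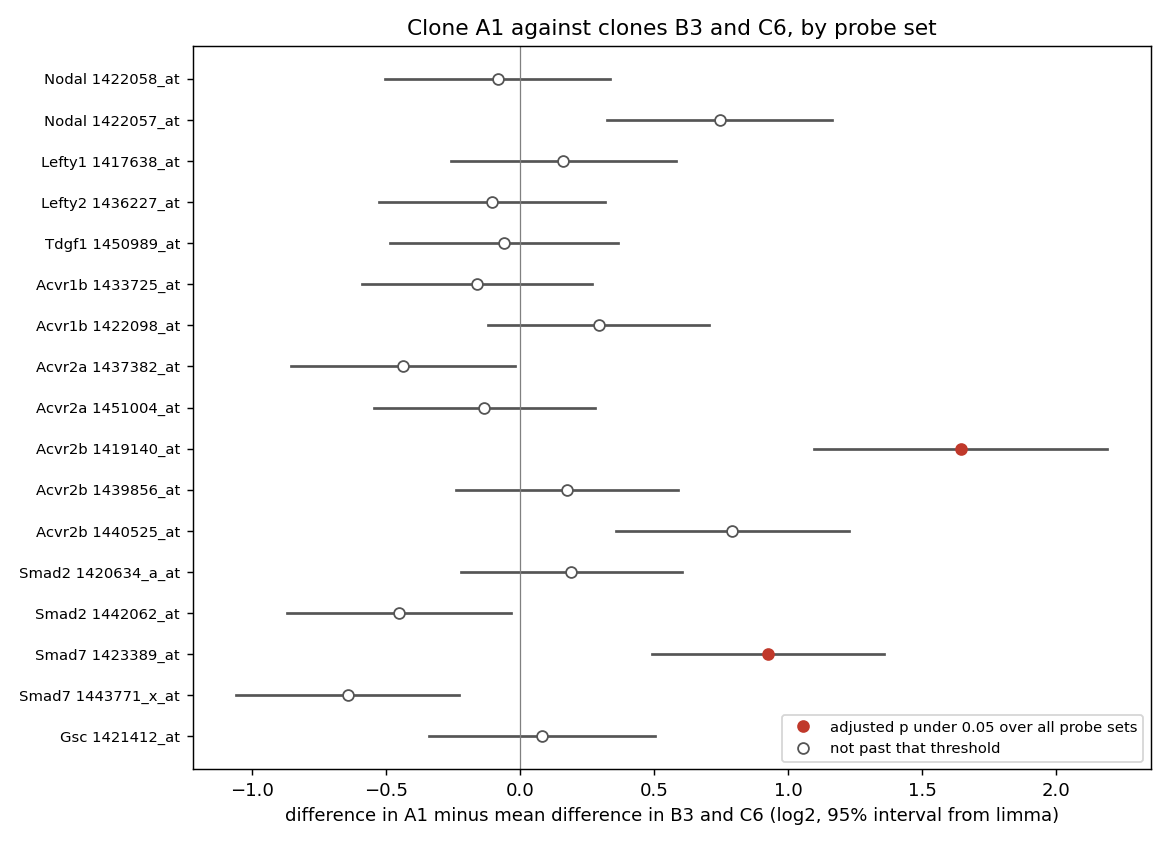
Induced minus uninduced difference in A1 minus the mean of the differences in B3 and C6 (log2), for each of the 17 probe sets with its 95% interval from limma; filled points passed an adjusted p of 0.05 over all probe sets. Acvr2b (1419140_at) lies at 1.64 and Smad7 (1423389_at) at 0.92, while the second Smad7 probe set lies at -0.64.

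Leaving out A1 and blocking on the 2 remaining clones (replicate block), 1 of the 17 passed, Acvr2b (1419140_at), which was lower after induction by -0.80 (adjusted p = 0.0271), against 2.18% of all probe sets. Without A1 and without the block it did not pass (adjusted p = 0.41), nor with all clones (adjusted p = 1). The Smad7 probe sets went opposite ways in this fit, and neither passed. They differed by -0.29 at 1423389_at (adjusted p = 0.235) and by 0.44 at 1443771_x_at (adjusted p = 0.0701). Acvr2b (1440525_at), at -0.49 (adjusted p = 0.058), did not pass either. At their brightest probe sets Lefty2 differed by 0.10, Tdgf1 by 0.01, Acvr1b by 0.05, Acvr2a by 0.19 and Smad2 by -0.11. Gsc differed in this fit by -0.20 (adjusted p = 0.41) and Lefty1 by 0.10 (adjusted p = 0.727). Nodal differed by 0.04 (adjusted p = 0.919) at its brightest probe set (1422058_at) and by -0.44 (adjusted p = 0.0722) at 1422057_at. This call and the clone test share the arrays of B3 and C6.

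Other genes of the pathway were taken from 6 lists, with 57 genes measured. None of the 57 passed in induced against uninduced arrays, 22 being higher and 35 lower, and 0 had an unadjusted p under 0.05. In the test of A1 against B3 and C6, 4 of the 57 passed, all higher in A1, with 2.71% of all probe sets passing and 1.71% passing as higher in A1. All 4 had a mean of at least 6, where movement in A1 against both others was more common (60.3%, against 41.4% of all probe sets). Without A1, in the blocked fit of B3 and C6, 3 of these 4 passed as lower after induction. They were Foxh1 at -0.83 (limma, adjusted p = 0.0166), Tgfb1 at -0.72 (adjusted p = 0.0269) and Ski at -0.58 (adjusted p = 0.0364). Eng at -0.44 (adjusted p = 0.082) did not pass. In that fit 2.18% of all probe sets passed. It shares the arrays of B3 and C6 with the clone test that picked these 4, so it is no separate support. The medians of the lists between states lay from -0.06 to 0.03, beside 0.00 for all probe sets.

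Among 10 genes of ligands and their processing, 3 were higher and 7 lower by their means and 1 passed the clone test. This was Tgfb1, the ligand TGF-beta 1, with differences of 0.41, -0.51 and -0.93 in A1, B3 and C6 (A1 against the others 1.13, limma, adjusted p = 0.0331). Furin and Pcsk6, convertases that cleave the Nodal precursor, stood apart in A1 by 0.64 and 0.66 and did not pass (adjusted p = 0.109 and 0.115). Tgfb2, apart by -0.47, did not pass either (adjusted p = 0.233), and 1 of its 3 other probe sets had the opposite sign in this test.

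Of 8 receptors and coreceptors, 1 was higher and 7 lower, and Eng, which encodes the TGF-beta coreceptor endoglin, passed the clone test. Its differences in A1, B3 and C6 were 0.47, -0.34 and -0.54 (0.91, adjusted p = 0.0438), with its only other probe set of the opposite sign. The BMP receptor gene Bmpr2 ran the other way at -0.76 and did not pass (adjusted p = 0.0863). Of its 2 other probe sets, 1 had the opposite sign in this test. Acvr1c, the alternative type I receptor for Nodal, at -0.44 and Acvr1 at 0.28 did not pass either.

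Of 9 Smads and nuclear partners, 6 were higher and 3 lower. Foxh1, the forkhead partner that takes Smad2 to its target genes, showed differences of 0.63, -0.62 and -1.04 in the 3 clones and passed the clone test (1.46, adjusted p = 0.014). Its values were 8.61, 8.69 and 8.50 in the uninduced and 9.24, 8.07 and 7.46 in the induced arrays of A1, B3 and C6. The uninduced arrays lay close together, and the induced array of A1 was above them and those of B3 and C6 below. Its suffix _s_at marks probes shared between transcripts. Mixl1, a homeobox gene of the primitive streak, was at 0.38, the coactivator gene Crebbp at 0.35 and Smad4 at 0.35, none past the threshold. The 2 other probe sets of Smad4, and 2 of the 3 others of Crebbp, had the opposite sign in this test.

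The 17 inhibitors split into 5 higher and 12 lower. Ski, a corepressor that binds Smads, passed the clone test, at 0.62, -0.47 and -0.68 in A1, B3 and C6 (1.20, adjusted p = 0.0173). The ubiquitin ligase gene Smurf1 at 0.68, Drap1, a repressor reported to restrain Foxh1, at 0.76 and the corepressor gene Tgif2 at 0.47 did not pass.

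The 10 measured targets and organizer genes were 5 higher and 5 lower and none passed in either comparison. Hesx1, a homeobox gene of the anterior embryo, came closest in induced against uninduced arrays (-0.21 ± 0.10, SE, n = 3 per group; limma, unadjusted p = 0.0635, adjusted p = 1), with differences of -0.21, -0.14 and -0.27 in A1, B3 and C6. The BMP antagonist gene Chrd was at -0.21 and the Wnt antagonist gene Dkk1 at 0.06 between states. Of the TFII-I family, Gtf2ird1 stood apart in A1 by 0.72 (adjusted p = 0.117), Gtf2ird2 by -0.29 and Gtf2i by 0.21.

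**Figure D4:**
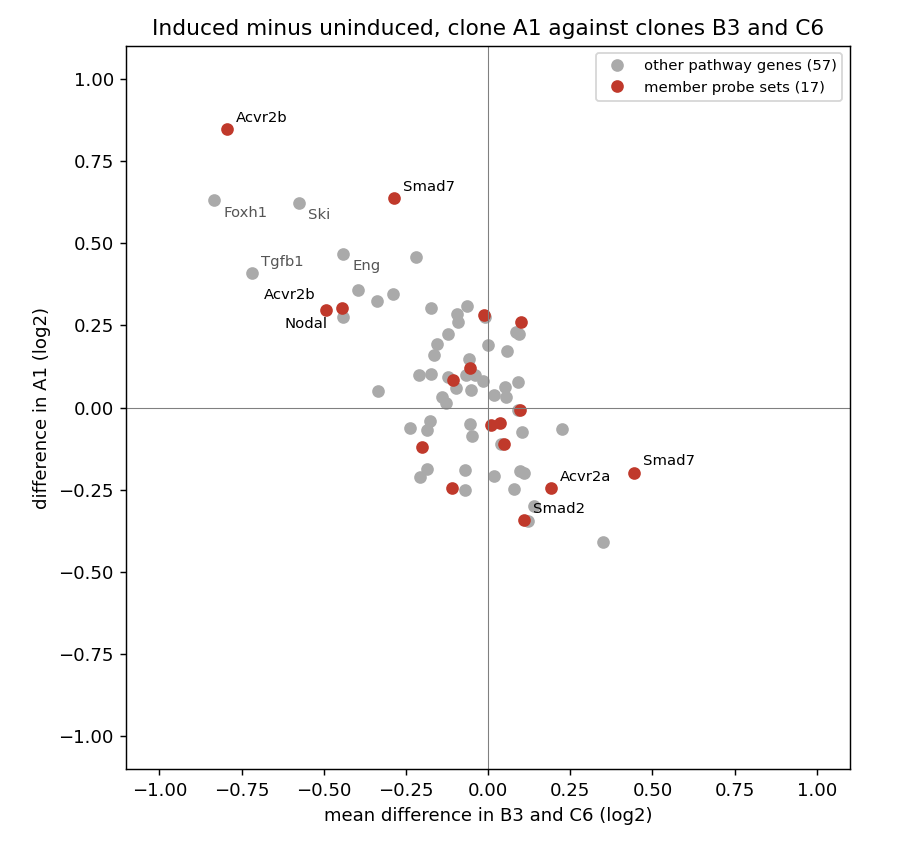
Induced minus uninduced difference (log2) in A1 on the vertical axis against the mean of the differences in B3 and C6 on the horizontal axis, for the 17 probe sets and for 57 other pathway genes. Acvr2b, Foxh1, Ski, Tgfb1 and Eng lie up and to the left, with positive differences in A1 and negative means for the other clones, with Smad7 on both sides.

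Over the 17 points, Pearson's r between clone differences was -0.67 for A1 and B3, -0.77 for A1 and C6, and 0.84 for B3 and C6. On the whole array it was -0.39, -0.48 and 0.46. The whole array is not a like background here either, since 14 of the 17 had a mean of at least 6. Several of the 17 points share a gene, each clone's values share its arrays, and the correlations are descriptions.

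Genes with the most similar course over the 6 arrays were sought by Pearson correlation among probe sets of other genes with a mean of at least 6. For Acvr2b (1419140_at) they were Ranbp3, Ptov1 and Kmt2b, with r = 0.998, 0.997 and 0.997. For Smad7 (1423389_at) they were Hdac7, Mybl2 and Kansl3 (r = 0.99 each). For Lefty1 they were C920021L13Rik, Actr3 and Nfatc3 (r = 0.99 each), whose own ranges were narrower, Actr3 lying between 11.30 and 11.47. For Gsc they were Ndufb7, Tmco4 and Aimp2 (r = 0.98, 0.98 and 0.97). These are the highest of 15726 to 15728 correlations on 6 points each.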

How the data were processed

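The 6 arrays were grouped by their titles, which give the state and the clone. The log2 values deposited by the authors were not renormalized; the authors had made them from the scanned arrays by robust multiarray averaging (RMA) with the affy package, per the labels and the methods, with versions not given in the sources used here. RMA summarises several probes into 1 value per probe set after background correction and quantile normalization, so values are relative to the array as a whole and low values are compressed. Of 45101 probe sets, 64 controls were left out. Genes were named from the platform annotation, which gave 34945 probe sets a single symbol; 932 with several symbols were not used for names, among them 1 that lists Acvr2a.

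Tests used limma 3.58.1 under R 4.3.3, with lmFit followed by eBayes (two-sided, Benjamini-Hochberg adjustment over 45037 probe sets, threshold 0.05), in place of the methods' t-test because of 3 arrays per group. The number of arrays limits the precision. Scripts were tested on simulated data, in which the clone tests made more false calls than the threshold allows. The same clones stand in both states; deviations of a clone's arrays from the group means correlated at 0.19, 0.53 and 0.31 for A1, B3 and C6. Members, lists and tests were chosen with earlier results of these data known. The lists cover ligands, receptors, Smads and partners, inhibitors, targets and the TFII-I family. Every probe set of the 10 genes was described; from the lists the up to 4 genes with the smallest p in the state or A1 test were named, with those that passed any test, and likeness was taken for the 3 genes of widest range and Gsc. Markers of primed epiblast and primitive streak were also listed.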

Additional observations from a re-analysis of the deposited data

Results flagged for a closer look

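By its labels, A1 differed from B3 and C6 in the change on induction of Acvr2b (1419140_at), standing above their mean by 1.64 on the log2 scale, and of Smad7 (1423389_at), by 0.92, both past the threshold of limma's test of the difference. The test sets 1 clone against 2, A1 was singled out with its direction known, and on simulated data such tests made more false calls than the threshold allows. For each, B3 and C6 moved together and A1 the other way. The second Smad7 probe set (1443771_x_at) stood below their mean, by -0.64 (limma, adjusted p = 0.107), so Smad7 has no settled direction in A1. The call of Smad7 at 1423389_at was lost when probe sets with a mean under 4 were left out. Whether the labels of the 2 A1 arrays are exchanged cannot be settled from these files, and with exchanged labels A1 would move with B3 and C6. The 7 markers of embryonic stem cells averaged 12.36 to 12.60 per array. Of these 7, 4 (Esrrb, Utf1, Pou5f1 and Nanog) had positive differences in A1 and negative ones in B3 and C6, Esrrb by 0.51, -0.36 and -0.65, while Sox2 and Dppa5a had the opposite signs and Zfp42 moved in B3 against the others. Together 6 of the 7 moved in A1 against the other clones, beside 60.3% of all those whose mean was 6 or more. Their part in the result was not tested.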

How the results depend on the processing

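In induced against uninduced arrays the count of calls was 0, overall and among the 17 probe sets, with the clone as a replicate block, by the methods' t-test, with a mean-variance trend, with array weights, after either renormalization, under either filter, with 1 probe set per gene and without each array in turn. The exception was the blocked fit without A1, with 981 calls overall and 1 of the 17; the blocked fits without B3 or C6 gave 0. Of 346 single values 55 changed sign under an alternative, none past the threshold in either fit; no sign changed for Gsc, Nodal (1422057_at), Acvr2a (1451004_at), Acvr2b (1440525_at) or Smad7 (1443771_x_at). The test of A1 against B3 and C6 called 2985 probe sets in all and 5 of the 17 with a mean-variance trend. With a mean of at least 6 it called 2355 of 17168, and 4 of the 14 members at that level. It called 458 in all with 1 probe set per gene. With a mean of at least 4, a filter that left out Gsc, it called 1 member probe set. The calls added by the trend or the higher filter were Nodal (1422057_at), Smad7 (1443771_x_at) and, with the trend alone, Acvr2b (1440525_at). None of 91 values of this test changed sign. The F test of level between clones called 108 under the filter at 6 and 1026 with no term for the state, and Lefty1 was the single call among the 17 under each. The cause of these shifts was not tested. Leaving a clone out of the clone test leaves no residual degrees of freedom, so it was not run.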
